A study of Salmo salar with 26 samples.

Results

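Oxidative phosphorylation is carried out by 5 protein complexes of the inner mitochondrial membrane. Complexes I (NADH dehydrogenase) and II (succinate dehydrogenase) take electrons from NADH and succinate, complexes III (cytochrome b-c1) and IV (cytochrome c oxidase) pass them on to oxygen, and complexes I, III and IV pump protons whose return drives complex V, the ATP synthase. A few core subunits are encoded in mitochondrial DNA and the others in the nucleus. In the vertebrate lens, mitochondria lie in the epithelium and the outer fibres, because fibre cells lose their organelles as they mature.

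The transcripts described here were, of 26681 unigenes, those whose best protein hit named NADH dehydrogenase, NADH-ubiquinone oxidoreductase, succinate dehydrogenase, cytochrome b-c1, cytochrome c oxidase or ATP synthase. A unigene is a transcript contig assembled without a genome, and 13784 of them carried a protein hit. The choice held 117 unigenes named for a subunit of a complex and 25 others. The 117 comprised 47 in complex I, 5 in complex II, 14 in complex III, 23 in complex IV and 28 in complex V. Mitochondrial DNA encodes 6 of these 117 (subunits 1, 4 and 5 of complex I and subunits I, II and III of complex IV), and the nucleus 111. Of the 25 others, 11 were assembly or accessory proteins, and 3 were subunits of the vacuolar proton pump, which is not part of oxidative phosphorylation. The last 11 had a mammalian best hit and 20 reads in all, spread over 7 libraries. The 117 subunit unigenes bore 81 distinct names, and 24 names were shared by 60 unigenes, so some names stand for gene copies, splice forms or fragments whose reads the authors' counting could have split.

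The lens transcriptome had been sequenced from 26 Atlantic salmon (Salmo salar), 1 library per fish, after poly(A) selection of RNA from the homogenised lens. The groups were diploid fish with cataract (2N+, 6 fish), diploid fish without cataract (2N-, 6), triploid fish with cataract (3N+, 8) and triploid fish without cataract (3N-, 6). The labels name no treatment beyond sorting by ploidy, and give body weights of 460 to 840 g in 2N+ against 110 to 345 g in 2N-, and of 270 to 885 g in 3N+ against 280 to 700 g in 3N-. Every 2N+ fish was heavier than every 2N- fish, so cataract and body weight cannot be told apart in diploids. Cataract averaged over both ploidies includes these fish, so body weight cannot be fully told apart from it there. Most 3N- fish were also heavier than every 2N- fish, so ploidy and body weight cannot be fully told apart in fish without cataract.

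The deposited values were RPKM, reads per kilobase of contig scaled to each library's counted reads, which ran from 9.76 to 11.95 M. The labelled tissue was checked against its markers: 76 lens fibre unigenes, mostly crystallins, summed to 469970 to 595290 RPKM, and none was at 0 in all lenses. Connexin 43, the gap junction protein of the lens epithelium, ran from 0.42 to 109.5 RPKM, with high and low lenses in all 4 groups. It was 1 of 8 lens epithelium unigenes. The 8 summed to 80.2 to 196.8 RPKM in the 14 lenses with connexin 43 above 10 RPKM. In the other 12 lenses they summed to 47.8 to 93.8 RPKM. These sums include connexin 43, by which the lenses were divided. Its medians were 63.3 RPKM in the high and 1.84 RPKM in the low lenses, where the sums had medians of 142.5 and 66.8 RPKM. The sums therefore cannot show whether the other epithelium unigenes follow connexin 43. The fits below use connexin 43 alone. Retina markers summed to 3022 RPKM in 2N+ replicate 2 and 1848 RPKM in 3N- replicate 1, against 7.47 to 785.5 RPKM in the other 24 libraries. Hemoglobin unigenes summed to 2028 RPKM in 3N- replicate 5 and 1374 RPKM in 2N+ replicate 1, against 4.78 to 691.3 RPKM in the other 24. In such bulk samples fewer cells of a type and less RNA per cell cannot be told apart.

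The transcripts from mitochondrial DNA stood far above the nuclear ones. Averaged over the 26 lenses, subunit II of cytochrome c oxidase (Unigene8773), which takes the electrons from cytochrome c, was at 3507 RPKM. Subunit I (Unigene3468), which holds the site of oxygen reduction, was at 3082 RPKM and subunit III (Unigene3520) at 2244 RPKM. Subunits 4, 1 and 5 of complex I were lower, at 665.7 RPKM (Unigene4360), 631.8 RPKM (Unigene8785) and 328.9 RPKM (Unigene6258). These are levels of contigs named by their best hit, from 811 bases (Unigene8773) to 3076 bases (Unigene3468). Whether a contig also covers a neighbouring gene was not tested. The 6 unigenes took 1.397 to 3.39% of all counted reads, and the 111 nuclear subunit unigenes together 0.201 to 0.329%.

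Among nuclear subunits the median level was highest for complex V, at 36.6 RPKM, followed by 27.6 RPKM for complex IV, 23.3 RPKM for complex I, 9.48 RPKM for complex II and 8.10 RPKM for complex III. The most abundant nuclear unigene was subunit f of the ATP synthase (Unigene4320), a small membrane subunit, at 244.8 RPKM. It was followed in complex V by both unigenes of subunit b, part of the stalk that holds the catalytic head still, at 119.3 RPKM (Unigene7933) and 116.1 RPKM (Unigene7932). The order here and below is of single unigenes, and unigenes of the same subunit were not summed. In complex IV the highest unigene was of subunit VIb (Unigene7475), on the outer face of the membrane, at 117.8 RPKM. Both unigenes of subunit VIII, a single membrane helix, followed at 111.3 RPKM (CL1618.Contig2) and 81.6 RPKM (CL1618.Contig1).

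Complex I was led by alpha subcomplex subunit 4 (Unigene7434) at 84.3 RPKM, a protein that in mammals is now placed in complex IV. It was followed by the accessory beta subcomplex subunits 10 (Unigene7194, 60.2 RPKM) and 7 (Unigene7527, 53.4 RPKM). Complex III was led by subunit 9 (Unigene3927) at 60.2 RPKM, ahead of subunit 7 (Unigene6269) at 34.8 RPKM and subunit 6 (Unigene4326), the hinge protein next to cytochrome c1, at 28.8 RPKM. In complex II the flavoprotein (CL781.Contig2), which oxidises succinate, was at 16.1 RPKM, an iron-sulfur subunit (CL3792.Contig1) at 13.6 RPKM and the membrane anchor cytochrome b560 (CL1947.Contig1) at 9.48 RPKM.

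**Figure D1:**
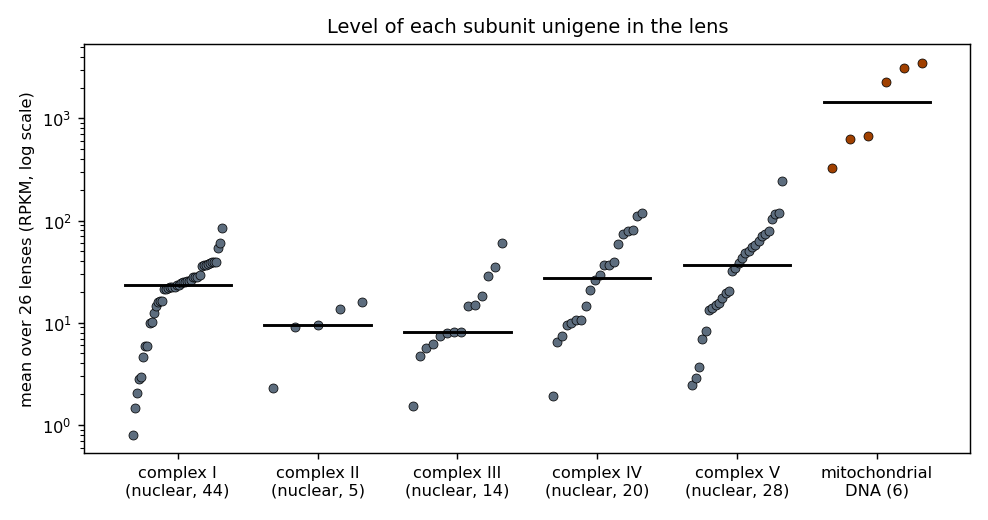
Each point is 1 unigene's mean RPKM over the 26 lenses on a log axis, sorted within its complex, and the line is the median of the complex. Nuclear unigenes ran from 0.801 to 244.8 RPKM, and all 6 unigenes from mitochondrial DNA lay above them, from 328.9 to 3507 RPKM.

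The subunit transcripts varied little between lenses of 1 group. The SD within groups, on the log2 scale after scaling of the libraries, had a median of 0.21 over the oxidative phosphorylation unigenes with a mean of at least 5 RPKM, and of 0.31 over the 9494 tested unigenes at that level. Over tested members of any level, the medians were 0.21 for complex I, 0.30 for complex II, 0.23 for complex III and 0.22 for complex IV. They were 0.20 for complex V and 0.19 for mitochondrial DNA, against 0.38 over all 19532 tested unigenes. Levels were not matched in these comparisons. Some unigenes varied more, and not all of them are described. The SD was 0.82 for Unigene15136 and 0.71 for Unigene16249, both named for the 75 kDa subunit of complex I and picked after their values were seen. Unigene15136 had 162 of its 725 reads in 2N+ replicate 2 and 99 in 3N- replicate 1, the retina-rich libraries. Unigene13892 and Unigene9285 are described with the paralogues.

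The summed level of each complex was taken per lens, in RPKM as deposited. For nuclear complex I the sums were 1009 to 1430 (median 1178) in 2N+ against 929.5 to 1101 (median 1019) in 2N-, and 952.7 to 1168 (median 1037) in 3N+ against 930.1 to 1185 (median 979.6) in 3N-. For complex V they were 1332 to 1771 (median 1539) in 2N+ against 1122 to 1429 (median 1251) in 2N-, and 1198 to 1538 (median 1356) in 3N+ against 1211 to 1560 (median 1290) in 3N-. In both complexes 4 of the 6 2N+ lenses lay above all 2N- lenses, while the triploid groups overlapped. They were the same 4 lenses, replicates 2, 3, 5 and 6, so the complexes were not separate observations. These were also the 4 2N+ lenses with connexin 43 above 10 RPKM, and replicate 2 is rich in retina markers.

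In the other complexes 2N+ again had the highest mean. Complex IV averaged 894.0 ± 134.3 RPKM in 2N+ against 722.6 ± 63.4 RPKM in 2N- (SD, n = 6 each), and in triploids 782.5 ± 76.9 RPKM in 3N+ (n = 8) against 729.2 ± 70.7 RPKM in 3N- (n = 6). Complex III averaged 255.4 ± 34.0 RPKM in 2N+ against 198.8 ± 19.3 RPKM in 2N-, and in triploids 226.1 ± 23.7 RPKM in 3N+ against 202.7 ± 25.8 RPKM in 3N-. Complex II averaged 57.0 ± 9.35 RPKM in 2N+ against 47.2 ± 5.15 RPKM in 2N-, and in triploids 50.1 ± 5.30 RPKM in 3N+ against 48.0 ± 7.46 RPKM in 3N-.

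These differences between diploid groups followed the scaling of the libraries. RPKM divide by all counted reads, of which crystallins take a large part. The lens fibre markers summed to 469970 to 577006 RPKM in 2N+ and 531746 to 595290 RPKM in 2N-. The part of the crystallins in the differences as deposited was not tested. After scaling, 7 of 72 tested fibre markers were lower in 2N+ than in 2N- and none higher, against 1.1% lower and 0.276% higher of all unigenes. Their median log2 change was -0.48. Between 3N+ and 3N- none of the 72 passed, against 0.087% of all unigenes, and the median was -0.08. Over both ploidies 10 were lower with cataract and none higher, against 1.87% lower and 0.814% higher of all unigenes, with a median of -0.27. Of the 8 lens epithelium unigenes 1 was lower in that contrast, Sox-2 (CL858.Contig1, -0.63 ± 0.17, limma, adjusted p = 0.0378). The median of the 8 was -0.15. None of the 8 passed between 2N+ and 2N-, where their median was -0.20. The scaling factors that align the bulk of the unigenes averaged 1.16 in 2N+ against 0.944 in 2N-, and 0.990 in 3N+ against 0.961 in 3N-. After division by them the 2N+ over 2N- ratio of the mean sums was 0.947 for complex I, against 1.17 as deposited. It was 0.982 for complex II (1.21 as deposited), 1.04 for complex III (1.28), 0.999 for complex IV (1.24) and 0.991 for complex V (1.22). The median change of all 19532 tested unigenes between 2N+ and 2N- was 0.28 on the log2 scale as deposited and 0.02 after scaling. The log2 changes below are therefore relative to the bulk of the unigenes.

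**Figure D2:**
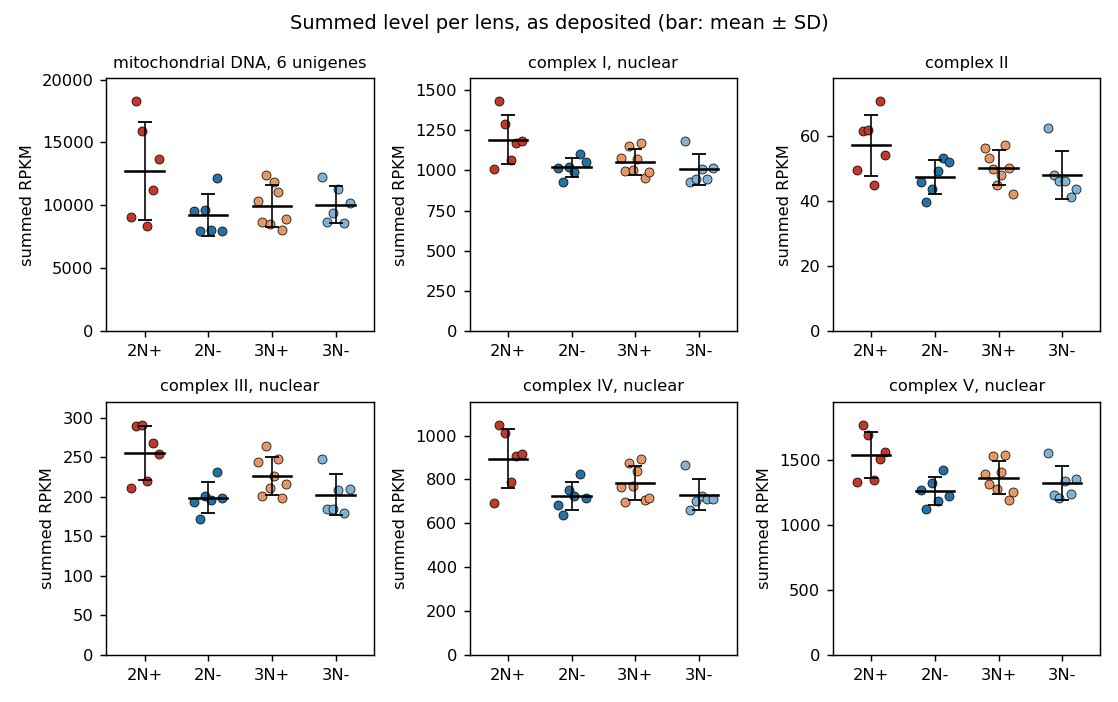
Each point is 1 lens and each panel the summed RPKM, as deposited, of the 6 unigenes of mitochondrial DNA or of the nuclear unigenes of a complex. The bars are group means with the SD, and 2N+ has the highest mean in every panel, from 57.0 in complex II to 12736 for mitochondrial DNA.

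The first comparison asked how these transcripts differed with cataract in diploid fish. Of 125 oxidative phosphorylation unigenes tested, 1 was lower in 2N+ than in 2N- and none was higher at an adjusted p under 0.05, or 0.8% against 1.37% called among all unigenes tested (1.1% lower and 0.276% higher). The other 17 members did not pass the filter on low values. They were the 11 with a mammalian hit and 6 others of low level. At an unadjusted p under 0.05 there were 14 of 125 (11.2%), against 12.5% of all unigenes.

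The unigene that fell was a subunit 5B of cytochrome c oxidase (COX5B, Unigene9769), the zinc-binding subunit on the matrix side of complex IV. Its level was 2.95, 4.33 and 6.95 RPKM (lowest, median and highest) in 2N+, against 5.68, 9.03 and 14.2 RPKM in 2N-. The groups overlapped only through the highest 2N+ lens, replicate 4, and 5 of 6 2N+ lenses lay below every 2N- lens. The log2 change was -1.31 ± 0.29 (SE, limma, adjusted p = 0.0216). As deposited it was -1.05 ± 0.30 (limma, adjusted p = 0.0368).

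A second COX5B unigene (CL3085.Contig2) was more abundant and was not called. It stood at 28.2, 53.9 and 67.7 RPKM (lowest, median and highest) in 2N+, against 22.4, 35.4 and 50.6 RPKM in 2N-, with overlapping groups and a log2 difference of 0.17 ± 0.13 after scaling (limma, adjusted p = 0.681). The share of Unigene9769 in the sum of both, which no scaling affects, was 4.29 to 15.99% (median 7.599%) in 2N+ and 16.3 to 25.7% (median 22.6%) in 2N-. Every 2N+ lens lay below every 2N- lens in this share. In triploids it was 6.38 to 20.0% (median 10.1%) in 3N+ and 9.52 to 24.2% (median 15.9%) in 3N-, and the groups overlapped. This share was chosen after the values were seen and was not tested.

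The same Unigene9769 was at 2.91, 4.62 and 8.16 RPKM (lowest, median and highest) in 3N+, against 4.31, 5.28 and 17.3 RPKM in 3N-. The value of 17.3 RPKM came from 3N- replicate 1, which is rich in retina markers. The log2 difference in triploids was -0.40 ± 0.27 (limma, adjusted p = 0.749), and without both retina-rich libraries it was -0.16 ± 0.26 (limma, adjusted p = 0.930). The cataract effects of the 2 ploidies differed by 0.91 ± 0.40 on the log2 scale (triploid minus diploid, limma, adjusted p = 0.773), which did not pass. Averaged over both ploidies the change was -0.85 ± 0.20 (limma, adjusted p = 0.0170), and without both retina-rich libraries -0.73 ± 0.19 (limma, adjusted p = 0.0437).

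Although its log2 change moved little in the fits below, the diploid call of Unigene9769 did not hold in every fit with 1 lens left out. It was lost without 2N- replicate 2 (log2 change -1.28, limma, adjusted p = 0.0614), 2N+ replicate 3 (-1.18, limma, adjusted p = 0.0681) or 2N+ replicate 5 (-1.30, limma, adjusted p = 0.0522). Its slope on connexin 43 was -0.01 ± 0.05 log2 units per doubling of connexin 43, and in a fit with connexin 43 as a covariate the change was -1.31 ± 0.29 (limma, adjusted p = 0.00642). Body weight and cataract cannot be told apart here, as the groups do not overlap in weight. Markers of surface epithelium (9 unigenes) summed to 103.1 to 415.1 RPKM in 2N+ and 105.7 to 149.3 RPKM in 2N-, and muscle markers (7 unigenes) to 101.1 to 159.3 RPKM in 2N+ and 63.4 to 111.7 RPKM in 2N-. After scaling, the median log2 change of the tested surface epithelium markers was 0.59 in 2N+ against 2N- and 1.48 in 3N+ against 3N-. For muscle markers it was 0.26 and 0.49. For the 4 hemoglobin unigenes it was 2.07 and 1.78, with all 4 above 0 in both contrasts. None of these markers passed in either contrast. The part of these markers in the change of Unigene9769 was not tested.

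The other nuclear subunits of complex IV gave log2 differences of -0.22 to 0.25 in diploids. Complex I had a median of -0.05 over 43 tested nuclear unigenes, with 17 above 0. The medians were -0.02 over 5 unigenes of complex II, 0.02 over 13 of complex III, 0.03 over 19 of complex IV and 0.05 over 28 of complex V, against 0.02 over all unigenes. As deposited the medians lay between 0.24 and 0.34, so the sign for complexes I and II depends on the scaling.

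The subunit with the smallest p in complex V was an ATP synthase lipid-binding protein (Unigene7441), subunit c, whose ring turns in the membrane as protons pass. It was at 51.9, 62.9 and 95.0 RPKM (lowest, median and highest) in 2N+, against 35.1, 43.7 and 48.9 RPKM in 2N-. Every 2N+ lens lay above every 2N- lens as deposited, but after scaling the log2 difference was 0.36 ± 0.11 (limma, adjusted p = 0.117). Of the other 3 unigenes named for subunit c, Unigene7402 gave 0.30 ± 0.13 (limma, adjusted p = 0.309). CL3069.Contig1 gave 0.15 ± 0.09 (limma, adjusted p = 0.564) and CL3069.Contig2 0.03 ± 0.09 (limma, adjusted p = 0.957). In complex I beta subcomplex subunit 3 (Unigene4204), an accessory subunit, was at 18.4 to 25.04 RPKM in 2N+ and 21.2 to 30.7 RPKM in 2N-, a log2 difference of -0.45 ± 0.14 (limma, adjusted p = 0.118).

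In complex III the smallest p belonged to a hinge protein unigene (CL1865.Contig1), at 16.2 to 24.4 RPKM in 2N+ and 11.5 to 14.7 RPKM in 2N-, a log2 difference of 0.27 ± 0.12 after scaling (limma, adjusted p = 0.340). In complex II it belonged to the small membrane anchor subunit (Unigene11582), at 2.21 to 4.04 RPKM in 2N+ and 0.266 to 3.88 RPKM in 2N- and a difference of 0.37 ± 0.28 (limma, adjusted p = 0.668). None of these passed.

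As deposited, 15 of the 125 unigenes passed between 2N+ and 2N-, 14 higher and 1 lower, or 11.2% higher and 0.8% lower against 5.61% and 1.13% of all unigenes. They were 3 of complex I, 1 of III, 2 of IV, 6 of V, 1 of mitochondrial DNA, 1 assembly factor and 1 of the vacuolar pump, and the 1 that was lower was Unigene9769. Of the 4 unigenes named for subunit c, 2 were among the 14, with 0.65 ± 0.12 for Unigene7441 (limma, adjusted p = 0.00257) and 0.58 ± 0.16 for Unigene7402 (limma, adjusted p = 0.0309). CL3069.Contig1 had 0.43 ± 0.15 (limma, adjusted p = 0.0723) and CL3069.Contig2 0.32 ± 0.14 (limma, adjusted p = 0.157), which did not pass.

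**Figure D3:**
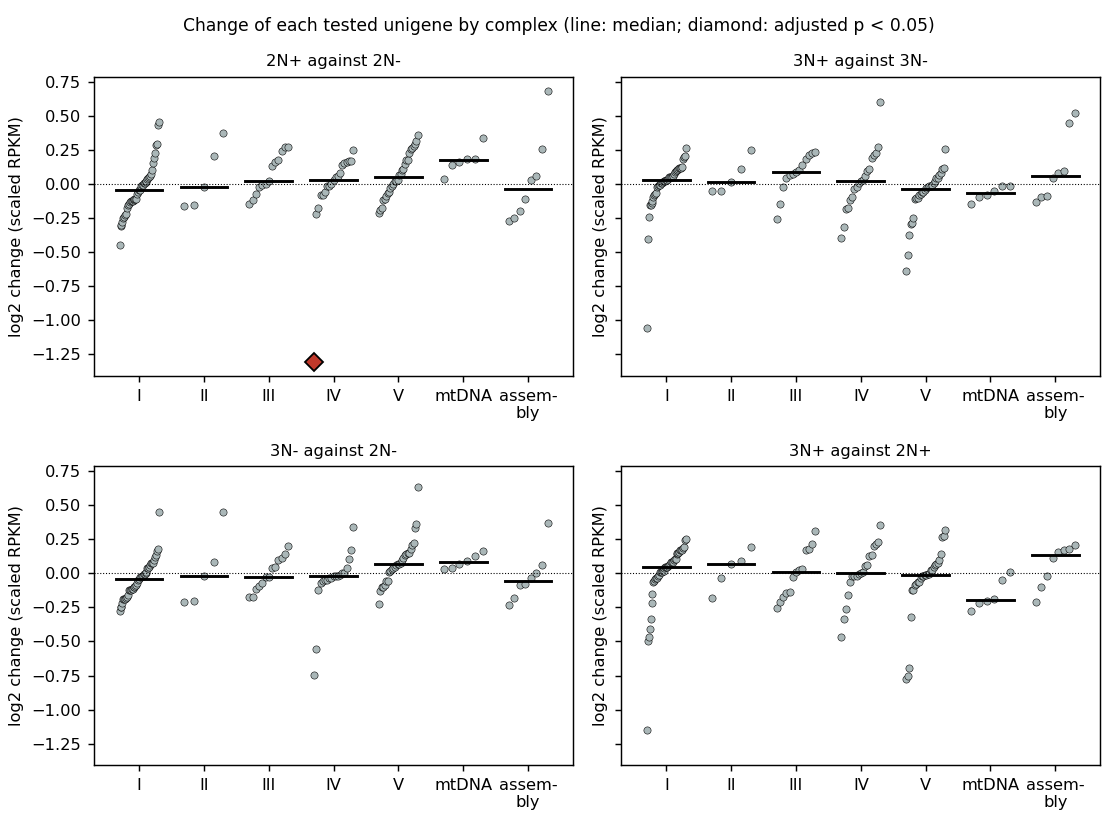
Each point is 1 tested unigene's log2 change after scaling in a pairwise contrast, sorted within its complex (mtDNA: the 6 unigenes of mitochondrial DNA), with the median as a line. The diamond at -1.31 in 2N+ against 2N- is COX5B Unigene9769, the only subunit past the threshold in these 4 contrasts, and the medians lie between -0.20 and 0.17.

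The transcripts of mitochondrial DNA summed to 8341, 12444 and 18259 RPKM (lowest, median and highest) in 2N+, against 7960, 8803 and 12163 RPKM in 2N-. In triploids the sums were 8055, 9623 and 12413 RPKM in 3N+ and 8572, 9781 and 12270 RPKM in 3N-. The highest lenses were 2N+ replicate 2 at 18259 and 2N+ replicate 3 at 15881 RPKM, and the retina markers summed to 3022 and 785.5 RPKM in them. The part of the retina in these levels was not tested.

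After scaling, all 6 unigenes of mitochondrial DNA had a log2 difference above 0 in 2N+ against 2N-, from 0.04 to 0.34 with a median of 0.17, against 53.1% of all unigenes above 0. Without both retina-rich libraries the median was 0.07. All 6 had their most reads in 2N+ replicate 2 and the next most in 2N+ replicate 3, so they were not 6 separate observations. In 3N+ against 3N- the 6 differences were between -0.14 and -0.01 after scaling, where 48.1% of all unigenes were above 0, but 2 of them were above 0 as deposited. None passed in any contrast after scaling. Subunit 4 of complex I (Unigene4360), with 608 to 1261 RPKM in 2N+ and 458 to 717 RPKM in 2N-, had the highest difference, 0.34 ± 0.11 (limma, adjusted p = 0.137). As deposited it passed at 0.63 ± 0.17 (limma, adjusted p = 0.0245), and it also passed after scaling in the fit with connexin 43 (0.34 ± 0.10, limma, adjusted p = 0.0459).

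The ratio of mitochondrial to nuclear subunit transcripts, which no scaling affects, was 2.40 to 3.97 (median 3.15) in 2N+ against 2.45 to 3.34 (median 2.82) in 2N-, and 2.57 to 3.29 (median 2.80) in 3N+ against 2.75 to 3.39 (median 3.04) in 3N-. All groups overlapped. Cytochrome b (Unigene8775), the mitochondrial DNA subunit of complex III whose name the choice of members did not cover, averaged 3699 ± 1224 RPKM in 2N+ and 2746 ± 454 in 2N- (SD, n = 6 each). Its log2 difference after scaling was 0.08 ± 0.11 (limma, adjusted p = 0.853).

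The second comparison asked the same of triploid fish. None of the 125 unigenes passed between 3N+ and 3N- (limma), against 0.087% of all unigenes, and 5 (4.0%) had an unadjusted p under 0.05, against 8.94%. With voom, a count-type limma fit on recovered reads, none passed either. The medians were 0.03 for complex I, 0.02 for II, 0.09 for III, 0.02 for IV and -0.04 for V, against -0.01 over all unigenes, and the sign for complex V was positive as deposited (0.01).

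The smallest p belonged to an ATP synthase alpha unigene of 211 bases (CL1343.Contig4), named for a subunit of the catalytic head. It was at 9.29, 12.2 and 21.9 RPKM (lowest, median and highest) in 3N+, against 12.8, 15.4 and 20.8 RPKM in 3N-, and 4 of 8 3N+ lenses lay below all 3N- lenses. The log2 difference was -0.37 ± 0.14 (limma, adjusted p = 0.361). In complex IV a subunit VIIa of the liver/heart type (Unigene9166), from the family whose isoforms differ between tissues in mammals, was at 6.05 to 15.7 RPKM in 3N+ and 3.59 to 11.2 RPKM in 3N-. Its difference was 0.60 ± 0.22 (limma, adjusted p = 0.383). In complex I the core iron-sulfur protein 2 (Unigene8874) was at 17.3 to 22.2 RPKM in 3N+ and 19.9 to 27.8 RPKM in 3N-, a difference of -0.24 ± 0.10 (limma, adjusted p = 0.466). In complex II cytochrome b560 (CL1947.Contig1) gave 0.25 ± 0.16 and in complex III the hinge protein unigene CL1865.Contig1 0.23 ± 0.11, with adjusted p-values of 0.733 and 0.568 (limma).

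The cataract contrast averaged over both ploidies includes the diploid groups, which do not overlap in body weight. Over both ploidies, 2 of 125 unigenes (1.6%) passed with cataract, against 2.68% of all unigenes (0.814% higher and 1.87% lower). At an unadjusted p under 0.05 there were 10 (8.0%), against 14.5%. One was COX5B Unigene9769. The other was ATP synthase F1 complex assembly factor 1-like (Unigene13605), whose yeast and mammalian counterpart is a chaperone of the beta subunit of the catalytic head. It was at 1.81, 3.604 and 4.79 RPKM (lowest, median and highest) in 2N+, against 1.18, 1.54 and 1.94 RPKM in 2N-. In triploids it was at 1.94, 3.33 and 5.75 RPKM in 3N+, against 0.783, 2.37 and 3.12 RPKM in 3N-. As deposited, 5 of 6 2N+ lenses lay above all 2N- lenses and 4 of 8 3N+ lenses above all 3N- lenses.

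The log2 change of Unigene13605 over both ploidies was 0.60 ± 0.16 (limma, adjusted p = 0.0403). It rested on 188 reads, and the unigene passed the filter through 3 lenses of 2N+ and 3 of 3N+ and none of 2N- or 3N-, so its presence among the tested unigenes already required higher values with cataract. With no filter the adjusted p was 0.0513 (limma), and without any 1 of 12 libraries (2N- replicates 2, 3, 4, 5 and 6, 2N+ replicates 3, 5 and 6, 3N- replicates 1, 3 and 5, and 3N+ replicate 7) it ran from 0.0568 to 0.0814 (limma) at changes of 0.52 to 0.61. Without 3N+ replicate 3, 5 or 6 the unigene was under the filter and not tested. The difference in triploids was 0.52 ± 0.22 (limma, adjusted p = 0.461) and in diploids 0.68 ± 0.23 (limma, adjusted p = 0.165).

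As deposited, 11 unigenes passed over both ploidies, 10 higher and 1 lower. The unigenes higher in that fit included subunit VIII (CL1618.Contig1, 0.28 ± 0.05, limma, adjusted p = 0.00248) and iron-sulfur protein 4 of complex I (Unigene8835, 0.25 ± 0.05, limma, adjusted p = 0.00539). Among all unigenes 5.72% were higher and 1.61% lower in that fit, and the median change was 0.16.

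**Figure D4:**
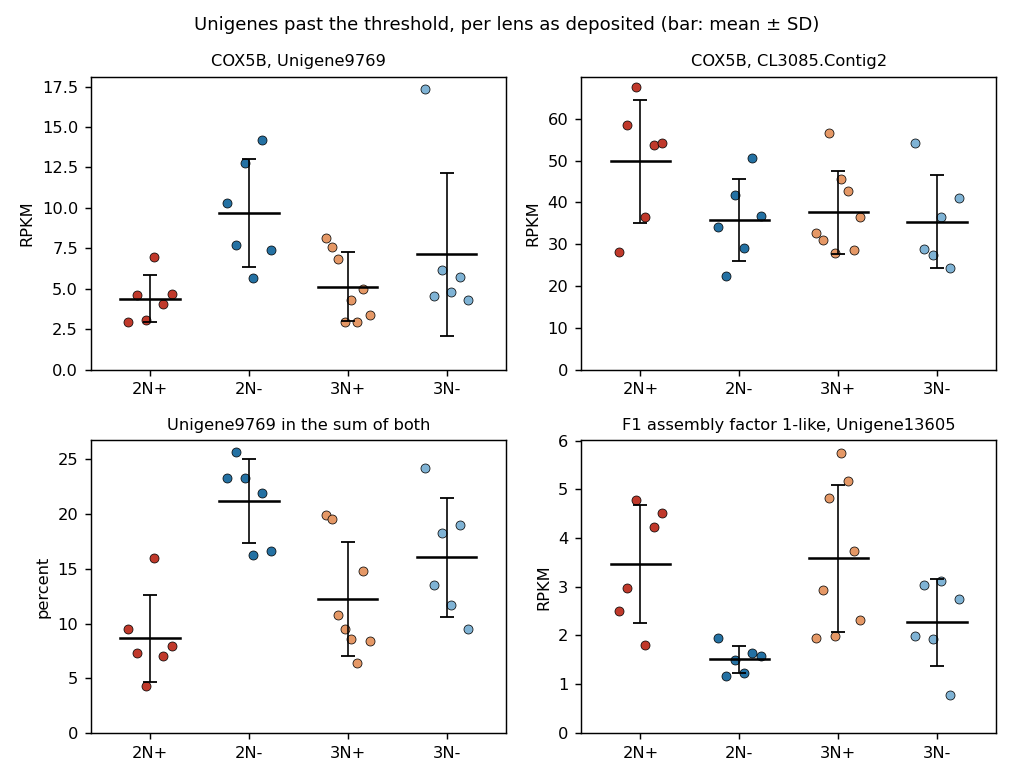
Each point is 1 lens, with group means and SD as bars: RPKM of both COX5B unigenes and of the F1 assembly factor, and the percent of Unigene9769 in the sum of both COX5B unigenes. In this share the 6 2N+ lenses lie at 4.29 to 15.99% and the 6 2N- lenses at 16.3 to 25.7%.

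The ploidy comparisons asked how triploid lenses differed from diploid ones. Most 3N- fish were heavier than every 2N- fish, so body weight and ploidy cannot be fully told apart in that comparison. The contrast of ploidy averaged over both cataract states includes it. None of the 125 unigenes passed in 3N- against 2N- (limma), against 0.0666% of all unigenes, with 7 (5.6%) at an unadjusted p under 0.05 against 10%. None passed in 3N+ against 2N+ (limma), against 0.0102%, with 9 (7.2%) at an unadjusted p under 0.05 against 8.02%. None passed for ploidy averaged over both cataract states (0.261% of all unigenes), or for the difference of the cataract effect between ploidies (0.00512%), where 4 and 9 members had an unadjusted p under 0.05 (3.2% and 7.2%, against 11.9% and 6.14% of all unigenes). Voom called none in these 4 contrasts.

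Without cataract, ATP synthase alpha CL1343.Contig4 was the nearest to the threshold. It was at 12.8, 15.4 and 20.8 RPKM (lowest, median and highest) in 3N-, against 6.09, 11.5 and 12.7 RPKM in 2N-. Every 3N- lens lay above every 2N- lens. The log2 difference was 0.63 ± 0.15 (limma, adjusted p = 0.0851), and it passed in the fit with connexin 43 (0.71 ± 0.12, limma, adjusted p = 0.00676). It also passed without 2N+ replicate 6 (0.63, limma, adjusted p = 0.0316), but with no other single lens left out. That lens is in neither group, so the lenses compared stayed the same. The 4 other alpha unigenes, the most abundant of them CL1343.Contig1 at 79.8 RPKM, gave differences of 0.02 to 0.21. CL1343.Contig4 is a contig of 211 bases with 843 reads over all lenses, against 2054 bases and 47306 reads for CL1343.Contig1, whose difference was 0.07.

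The liver/heart subunit VIIa Unigene9166 was at 3.59, 5.36 and 11.2 RPKM in 3N-, against 7.37, 10.7 and 12.1 RPKM in 2N-, and 4 of 6 3N- lenses lay below all 2N- lenses. The log2 difference was -0.74 ± 0.24 (limma, adjusted p = 0.237). A second liver/heart unigene (Unigene6620) gave 0.00 ± 0.15. Subunit c Unigene7441 was at 46.4 to 64.1 RPKM in 3N- and 35.1 to 48.9 RPKM in 2N-, a difference of 0.33 ± 0.11 (limma, adjusted p = 0.268). In complex I a unigene named only for the alpha subcomplex (CL2021.Contig2) was at 1.68 to 3.31 RPKM in 3N- and 1.43 to 2.33 RPKM in 2N-, a difference of 0.45 ± 0.19 (limma, adjusted p = 0.398). In complex II a second iron-sulfur subunit unigene (Unigene2945) gave 0.45 ± 0.27 and in complex III subunit 10 (Unigene8986), a small subunit, -0.18 ± 0.12, with adjusted p-values of 0.639 and 0.685 (limma). None of these passed.

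The complex medians were -0.04 for I, -0.02 for II, -0.02 for III, -0.02 for IV and 0.07 for V, with 21 of 28 complex V unigenes above 0, against 50.5% of all unigenes. As deposited the medians for II, III and IV were above 0, at 0.01, 0.00 and 0.00.

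With cataract, the smallest p was that of beta subcomplex subunit 1 of complex I (Unigene4291), a small accessory subunit. It was at 16.9 to 32.3 RPKM in 3N+ and 23.0 to 50.5 RPKM in 2N+, with 4 of 8 3N+ lenses below all 2N+ lenses and a log2 difference of -0.34 ± 0.12 (limma, adjusted p = 0.455). In complex IV a subunit VIa unigene (CL1847.Contig2) was at 25.7 to 47.5 RPKM in 3N+ and 29.1 to 62.4 RPKM in 2N+, a difference of -0.26 ± 0.10 (limma, adjusted p = 0.529). In complex V subunit e (Unigene11100), which helps to pair ATP synthases in the membrane, was at 0.879 to 3.85 RPKM in 3N+ and 1.15 to 11.6 RPKM in 2N+, a difference of -0.70 ± 0.32 (limma, adjusted p = 0.590). It had 69 reads in 2N+ replicate 2, 37 in 2N+ replicate 3 and 7 to 21 in the other 2N+ lenses. The highest 2N+ values of these unigenes, 50.5, 62.4 and 11.6 RPKM, came from 2N+ replicate 2, which is rich in retina markers. The part of the retina was not tested. The hinge protein Unigene4326 gave 0.31 ± 0.16 (limma, adjusted p = 0.652), and the complex II flavoprotein CL781.Contig2 0.09 ± 0.12 after scaling and -0.13 as deposited.

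After scaling the complex medians were 0.04 for I, 0.07 for II, 0.01 for III, 0.00 for IV and -0.01 for V. As deposited all 5 were negative, from -0.14 to -0.23, where all unigenes had a median of -0.21. The 6 unigenes of mitochondrial DNA had a median of -0.20 after scaling and -0.42 as deposited. Without both retina-rich libraries, one of which is 2N+ replicate 2, the scaled median was -0.10. None of the 6 passed, and the lowest was ND1 (Unigene8785) at -0.27 ± 0.11 (limma, adjusted p = 0.564).

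Connexin 43 moved with many of these transcripts, in a slope fitted across lenses within groups. This slope was added after the data were seen, and connexin 43 values fell into a high and a low cluster. After scaling, 41 of 125 unigenes (32.8%) were lower and 11 (8.8%) higher where connexin 43 was high, against 16.9% and 21.2% of all unigenes. Complex I had the most, with 22 of 43 nuclear unigenes lower and 1 higher. Complex V had 9 lower and 5 higher of 28, complex IV 4 and 4 of 19, complex III 3 and 0 of 13 and complex II 2 and 0 of 5. The 5 higher of complex V included Unigene13985 and Unigene7556, which passed the filter only through lenses with connexin 43 above 10 RPKM.

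These signs are relative to the bulk of the unigenes, and the lower calls did not hold as deposited. The scaling factors were 0.983 to 1.41 in the 14 lenses with connexin 43 above 10 RPKM and 0.708 to 0.981 in the other 12. The lower calls after scaling therefore cannot be told apart from the scaling. As deposited, 76 of 125 unigenes (60.8%) had a higher level with more connexin 43 and none a lower one, against 48.7% and 1.49% of all unigenes, and complex I had 21 of 43 higher. The median slope over complex I was -0.04 after scaling and 0.03 as deposited, and over all unigenes 0.00 and 0.07. For mitochondrial DNA none of the 6 slopes passed after scaling and all 6 were positive as deposited, with medians of 0.02 and 0.10. Whether the epithelial share of the sample or another difference between lenses set these slopes was not tested.

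With connexin 43 as a covariate, 5 unigenes were called in 2N+ against 2N-. The 2 higher ones were subunit c Unigene7441 and subunit 4 of complex I Unigene4360, against 1.04% of all unigenes. The 3 lower ones were COX5B Unigene9769, Unigene4204 and a further complex I unigene (Unigene6296, -0.31 ± 0.09, limma, adjusted p = 0.0433), against 3.66%. Over both ploidies 1 was higher (1.78% of all unigenes) and 4 were lower (4.05%), the 4 being Unigene9769 and 3 of complex I. The alpha unigene CL1343.Contig4 was called in 3N- against 2N- (0.2% of all unigenes higher) and for ploidy over both cataract states (0.312%).

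**Figure D5:**
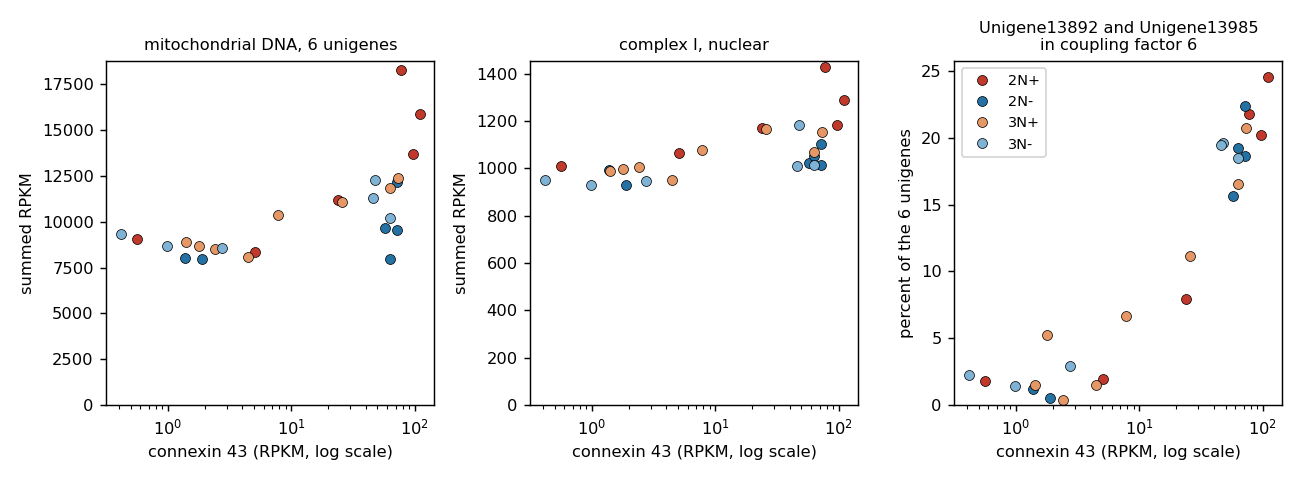
Each point is 1 lens, with connexin 43 in RPKM on a log axis against the summed RPKM, as deposited, of mitochondrial DNA and of nuclear complex I, and against the percent of 2 coupling factor 6 unigenes in the sum of all 6. The percent runs from 0.359 to 24.5 over the 26 lenses, and 2N+ replicate 2 has the highest sum in both other panels, 18259 and 1430 RPKM.

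Unigenes of the same subunit had unlike slopes on connexin 43, but the differences between slopes were not tested. Coupling factor 6 of the ATP synthase, part of the stalk that joins the membrane rotor housing to the catalytic head, had 6 unigenes. Unigene13892 had a slope of 0.67 ± 0.04 log2 units per doubling of connexin 43 (limma, adjusted p = 6.74e-13) and Unigene13985 one of 0.59 ± 0.06 (limma, adjusted p = 2.72e-09). The most abundant, Unigene7400 at 34.6 RPKM, had -0.01 ± 0.02 after scaling (limma, adjusted p = 0.779) and 0.07 ± 0.02 as deposited (limma, adjusted p = 0.00186). Unigene7557 had 0.16 ± 0.02 after scaling (limma, adjusted p = 3.17e-07) and 0.24 ± 0.02 as deposited (limma, adjusted p = 6.94e-09), and lay at 11.7 to 24.95 RPKM in the 14 lenses with connexin 43 above 10 RPKM, against 4.65 to 10.8 RPKM in the other 12. Unigene7556 had 0.24 ± 0.06 (limma, adjusted p = 0.00244) and as deposited 0.30 ± 0.06 (limma, adjusted p = 0.000139). Unigene7558 had -0.07 ± 0.02 (limma, adjusted p = 0.00722), and as deposited 0.00 ± 0.02 (limma, adjusted p = 0.856). So 4 of the 6 had positive slopes that passed under both scalings, but the filter on low values bears on this count. Unigene13985 and Unigene7556 reached the filter's 10 reads only in lenses with connexin 43 above 10 RPKM. Their presence among the tested unigenes thus already required higher values where connexin 43 was high. Unigene13892 reached the 10 reads in such lenses and in 3N+ replicate 1.

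Unigene13892 was at 0.885 to 21.2 RPKM in 2N+ against 0.243 to 13.9 RPKM in 2N-, and at 0.247 to 12.7 RPKM in 3N+ against 0.470 to 13.8 RPKM in 3N-. It and Unigene13985 had the steepest slopes of the 6 and were chosen for that after their values were seen. The SD of Unigene13892 within groups was 1.66 on the log2 scale, the highest of the 125. Together both made up 1.81 to 24.5% of the coupling factor 6 sum in 2N+ against 0.522 to 22.3% in 2N-, and 0.359 to 20.7% in 3N+ against 1.42 to 19.6% in 3N-. Each group thus spanned nearly the whole range, and the log2 differences of Unigene13892 between groups ranged from -0.78 to 0.26 with none passing.

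The steepest positive slope outside coupling factor 6 was that of alpha subcomplex subunit 4-like 2 (Unigene9285), a relative of the leading complex I unigene that in mammals is induced by low oxygen. It was at 4.65, 16.9 and 71.6 RPKM (lowest, median and highest) in 2N+, against 4.88, 16.03 and 19.99 RPKM in 2N-. In triploids it was at 1.47, 5.32 and 25.7 RPKM in 3N+, against 3.21, 14.7 and 54.7 RPKM in 3N-, and all groups overlapped. The values of 71.6 and 54.7 RPKM came from 2N+ replicate 2 and 3N- replicate 1, the retina-rich libraries. Its slope was 0.37 ± 0.07 (limma, adjusted p = 8.72e-05), whereas subunit 4 itself (Unigene7434) had -0.06 ± 0.02 (limma, adjusted p = 0.00263) after scaling and 0.02 ± 0.01 as deposited (limma, adjusted p = 0.299).

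In complex IV, COX5B CL3085.Contig2 had a slope of 0.07 ± 0.01 after scaling (limma, adjusted p = 0.000256), and Unigene9769 had -0.01 ± 0.05 (limma, adjusted p = 0.876). Subunit VIa unigene CL1847.Contig2 had 0.05 ± 0.01 (limma, adjusted p = 0.00361) and CL1847.Contig1 -0.06 ± 0.01 (limma, adjusted p = 0.00117). As deposited, CL1847.Contig2 kept a positive slope of 0.13 ± 0.02 and CL1847.Contig1 had 0.02 ± 0.01 (limma, adjusted p = 0.276).

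Assembly and accessory proteins other than Unigene13605 gave no call. The copper chaperone of cytochrome c oxidase (Unigene8830), which brings copper to the assembling enzyme, led them at 33.0 RPKM. The median over the 8 tested was -0.04 in 2N+ against 2N- and 0.06 in 3N+ against 3N-. None of the 3 vacuolar pump unigenes passed after scaling.

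Other mitochondrial genes were grouped by the words of their protein hits. Among cytochromes b and c, carriers and accessory proteins 0 of 28 tested passed with cataract over both ploidies, as did 0 of 27 for the tricarboxylic acid cycle, 0 of 30 for outer membrane channels and import and 0 of 23 for mitochondrial number and upkeep. Of 75 mitochondrial ribosomal proteins, which build the proteins encoded in mitochondrial DNA, 2 were higher and 1 was lower, against 0.814% and 1.87% of all unigenes. The medians of these 5 lists over both ploidies lay between -0.03 and 0.03.

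Among the most abundant of these genes beside cytochrome b, the outer membrane channel voltage-dependent anion channel 1 (CL2908.Contig2) averaged 52.6 ± 6.33 RPKM in 2N+ against 44.7 ± 3.88 RPKM in 2N- (SD, n = 6 each), and 44.01 ± 5.39 RPKM in 3N+ (n = 8) against 49.7 ± 2.89 RPKM in 3N- (n = 6). Prohibitin (Unigene8082), partner of prohibitin 2 in the inner membrane, averaged 33.98 ± 5.23 RPKM in 2N+ against 24.7 ± 4.40 RPKM in 2N-, and 28.8 ± 3.53 RPKM in 3N+ against 31.9 ± 2.67 RPKM in 3N-. The beta subunit of pyruvate dehydrogenase E1 (CL868.Contig1), which feeds acetyl-CoA to the cycle, averaged 22.2 ± 7.98 RPKM in 2N+ against 17.7 ± 2.72 RPKM in 2N-, and 15.7 ± 2.28 RPKM in 3N+ against 14.5 ± 4.21 RPKM in 3N-. Ribosomal protein L18 (Unigene3977) lay between 35.2 and 46.2 RPKM in all 26 lenses. As deposited, each overlapped between the triploid groups, and none passed in a pairwise contrast after scaling.

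Mitochondrial 28S ribosomal protein S6 (Unigene8969) averaged 24.5 ± 5.49 RPKM in 2N+ against 15.1 ± 1.15 RPKM in 2N- (SD, n = 6 each), and 24.03 ± 5.62 RPKM in 3N+ (n = 8) against 16.2 ± 1.98 RPKM in 3N- (n = 6). The 2N+ lenses, from 20.0 RPKM up, lay above all 2N- lenses, which reached 16.5 RPKM. With cataract over both ploidies its log2 change was 0.43 ± 0.12 (limma, adjusted p = 0.0488). In the same contrast that of S29 (Unigene13149) was 0.52 ± 0.14 (limma, adjusted p = 0.0424) and that of 39S protein L38 (Unigene9317) -0.28 ± 0.08 (limma, adjusted p = 0.0497). No mitochondrial ribosomal protein passed in 2N+ against 2N- or in 3N+ against 3N-.

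For ploidy over both cataract states 1 of 28 in the list of cytochromes, carriers and accessory proteins was lower and 1 of 23 in that of mitochondrial number and upkeep was higher, against 0.261% of all unigenes in either direction. None passed in the other 3 lists. Uncoupling protein 2A (CL1232.Contig1), from the family of inner membrane carriers that let protons back without making ATP, averaged 5.76 ± 1.23 RPKM in 3N+ (n = 8) and 8.66 ± 1.08 in 2N+ (SD, n = 6), and 4.54 ± 1.58 in 3N- and 6.68 ± 1.36 in 2N- (n = 6 each). Its log2 change was -0.47 ± 0.10 (limma, adjusted p = 0.0421). Prohibitin 2 (CL1171.Contig1), a scaffold protein of the inner membrane, had 0.28 ± 0.06 (limma, adjusted p = 0.0488).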

How the data were processed

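RNA from 26 salmon lenses had been sequenced. The authors deposited RPKM values with the best protein hit of each unigene, per the file headers; which software assembled, aligned or counted is not given in the sources used here. Whole reads were recovered from the deposited RPKM for 100% of unigenes (tolerance 0.01 reads), and their median count was 14 in each unigene and library, which limits precision at low levels. Scaling factors were trimmed means of M values (trims 0.3 and 0.05) on these reads. Unigenes with at least 10 reads, at the median library size, in at least 6 libraries and at least 15 reads in all were tested (19532). The test was limma 3.58.1 (R 4.3.3; empirical Bayes, trend and robust) on log2 of scaled RPKM plus 0.5, which understates changes of low unigenes, in 1 fit of 4 group means with 7 contrasts. P-values are two-sided and Benjamini-Hochberg adjusted over all unigenes tested, and calls use 0.05. The test was checked on simulated data.

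Levels, ranges and counts of lenses are RPKM as deposited, and log2 changes are after scaling unless said otherwise. Each library is a separate fish. The members and lists were chosen with earlier results of these data known. Members were named if called in any contrast, if among the 3 most abundant of a complex or of mitochondrial DNA, if they had the smallest p of a complex in a pairwise contrast, or, for some subunits with several unigenes, where these were compared with each other. Of the other mitochondrial genes, those called and the most abundant of each list were named. Alternatives were values as deposited, a pseudocount of 0.1, no filter, voom, the 2 groups alone, a replicate block, covariates and each replicate left out. Leaving out retina-rich or hemoglobin-rich libraries, median-of-ratios factors and slopes on connexin 43 were added after seeing the data. Voom on the recovered reads called 355 unigenes in 2N+ against 2N-, where the test on RPKM called 268, and 545 over both ploidies, where it called 524. No sequences are shown.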

Additional observations from a re-analysis of the deposited data

Results flagged for a closer look

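A lens far from the others of its group was looked for in 96 sets with Dixon's test at 95%, which flags about 1 set in 20 by chance, and 10 were found. The sets were, in each group, the sums per complex and of mitochondrial DNA, and the unigenes called or with the smallest p of a complex. Other unigenes named in the text, such as Unigene9285 and Unigene13892, were not screened. In 3N- replicate 1, rich in retina markers, the sums were highest for nuclear complex I (1185 RPKM, next 1016), complex II (62.4, next 48.0) and complex IV (866.8, next 725.9), and so was COX5B Unigene9769 (17.3, next 6.15).

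In 2N+ replicate 5 the succinate dehydrogenase iron-sulfur protein Unigene2945 was at 22.4 RPKM, next 10.4, and in 2N+ replicate 6 ATP synthase alpha CL1343.Contig4 was at 28.01 RPKM, next 16.3. In 3N+ replicate 3 the small complex II anchor Unigene11582 was at 5.05 RPKM, next 2.78. In 2N- replicate 4 the hinge protein Unigene4326 was at 32.7 RPKM, next 24.5, and a complex I alpha subcomplex unigene (CL2021.Contig2) at 2.33, next 1.76. In 2N- replicate 5 complex I beta subcomplex subunit 1 (Unigene4291) was at 33.4 RPKM, next 24.45. No cause was tested.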

How the results depend on the processing

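In 2N+ against 2N-, 1 member was called, 15 with values as deposited and 5 with connexin 43 as a covariate. Over both ploidies the 2 called became 11 as deposited, 5 with connexin 43, and 1 with no filter, with voom, with the replicate block, without both retina-rich libraries or without both hemoglobin-rich ones. With connexin 43, 1 was also called in 3N- against 2N- and 1 for ploidy over both cataract states, where there had been 0. Leaving out 1 replicate at a time gave 0 to 1 in 2N+ against 2N-, 0 to 1 in 3N- against 2N-, 1 to 2 over both ploidies and 0 in the other 4 contrasts. COX5B Unigene9769 kept its call over both ploidies in all of these. The sign of 1 named difference reversed, that of the complex II flavoprotein CL781.Contig2 in 3N+ against 2N+, which was 0.09 after scaling and -0.13 as deposited. Except as stated, the cause was not tested. The low read number of Unigene13605 limits its value.

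Libraries with the same replicate number were checked for pairing: 11 of 24 pairs had residuals correlated above 0.1, and only 3 of the 26 libraries resembled one of their own number most. The rate for pairs of unlike number was not computed, so the check cannot exclude a pairing. With the replicate block the calls were 1 in 2N+ against 2N- and 1 over both ploidies, both Unigene9769.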
